A study of Mus musculus with 8 samples.

Results

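The acute phase genes and pentraxin 3 are a set of 10 genes whose products defend the tissue fluids when inflammation begins. They were chosen by name as every probe of the deposited array table whose gene symbol is Ptx3, Saa1, Saa2, Saa3, Lcn2, Hp, Orm1, Orm2, Cp or Lbp. Each of the 10 had 1 probe, and they are 10 of the 25734 genes named on the array, of which 25647 could be tested. RNA from whole lungs was measured on 8 arrays with 2 colours, 4 of WT mice and 4 of TGFb1-Tg mice, which carry an inducible gene for active human TGF-β1, the growth factor that drives lung fibrosis.

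All mice were of the B6J background and aged 10 weeks per the labels, and WT mice were littermates of the transgenic ones. Doxycycline in the drinking water at 1 mg/ml turns the transgene on. The labels give lung harvests from 2 to 14 days over the whole study, and the file headers give 14 days for each sample. The headers put the TGFb1-Tg samples on doxycycline and the WT samples on water, while the labels call the WT treatment control. The lung of the named mouse was in Cy5 and a pooled RNA was in Cy3 on every array. For this pool the labels name one combined WT control on all 8 arrays, whereas the headers name 2 pools of 4 water-drinking mice each, a WT pool beside the WT samples and a TGFb1-Tg pool beside the TGFb1-Tg samples. If the headers hold, a TGFb1-Tg ratio sets doxycycline against water within the transgenic line, and doxycycline itself and transgene induction cannot be told apart. The promoter that drives the transgene is not given in the sources used here.

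The acute phase response is the change in secreted proteins that follows infection or injury. Interleukin 6, acting through STAT3, and interleukin 1 and TNF, acting through NF-κB and C/EBP factors, switch on these genes in the liver, and several of them are also made in the lung by epithelium, macrophages and fibroblasts. Ptx3 is the long pentraxin made at the site of inflammation rather than in the liver.

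Tgfb1, read by a probe named for the mouse gene that may or may not detect the human transgene, rose by 1.03 ± 0.08 in log2 sample over pool (SE, adjusted p = 8.95e-05). The type 2 cell markers Abca3 and Lamp3 were measured in every lung, at summed sample intensities of 21.4 to 22.3 in WT and 22.4 to 24.6 in TGFb1-Tg. In the ratio Lamp3 was higher by 0.53 ± 0.08 (SE, limma's adjusted p = 0.0018), and Abca3 differed by 0.06 ± 0.09 (SE, limma's adjusted p = 0.648). Lamp3 was not called in the direct comparison of sample channels described below. Sftpc, Sftpb, Sftpa1 and all 3 club cell markers had too few values to test. Between 39039 and 39281 probes were measured per array, and the number of arrays limits the precision. Over all probes the log2 ratios had an SD of 0.13 to 0.16 in WT and of 0.39 to 0.41 in TGFb1-Tg. Between arrays the log2 ratios correlated over genes at r = 0.94 to 0.963 within TGFb1-Tg and at r = -0.445 (replicates 2 and 3) to 0.068 within WT. The labels state the dye of each channel, so the direction was kept.

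Of the 10 genes, 7 had a higher ratio of sample over pool in TGFb1-Tg lungs, 1 had a lower one and 2 did not pass the test. A gene was called when limma's adjusted p for the difference in log2 sample over pool, TGFb1-Tg minus WT, was under 0.05. Over all genes tested the same rule called 19% higher and 19.8% lower, 38.8% in all. The called rises were those of Ptx3, Saa3, Lcn2, Orm1, Orm2, Lbp and Saa1, and the called fall was that of Hp. For Saa1 the sample channel overlapped, at 0.05 to 0.07 in WT and 0.04 to 0.07 in TGFb1-Tg, and the pool was lower beside TGFb1-Tg. Orm2 samples lay at 0.02 to 0.04, where the 0.01 step of the intensities allows a difference from 0.00 upwards. In 6 of the 10, Orm2 among them, the called rise in the ratio was at least 2-fold, against 1.91% of all genes tested. The median difference was 1.09 over the 10 genes and 0.00 over all genes tested. In whole lung, more cells that make a transcript and more transcript per cell cannot be told apart, nor can fewer and less.

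**Figure D1:**
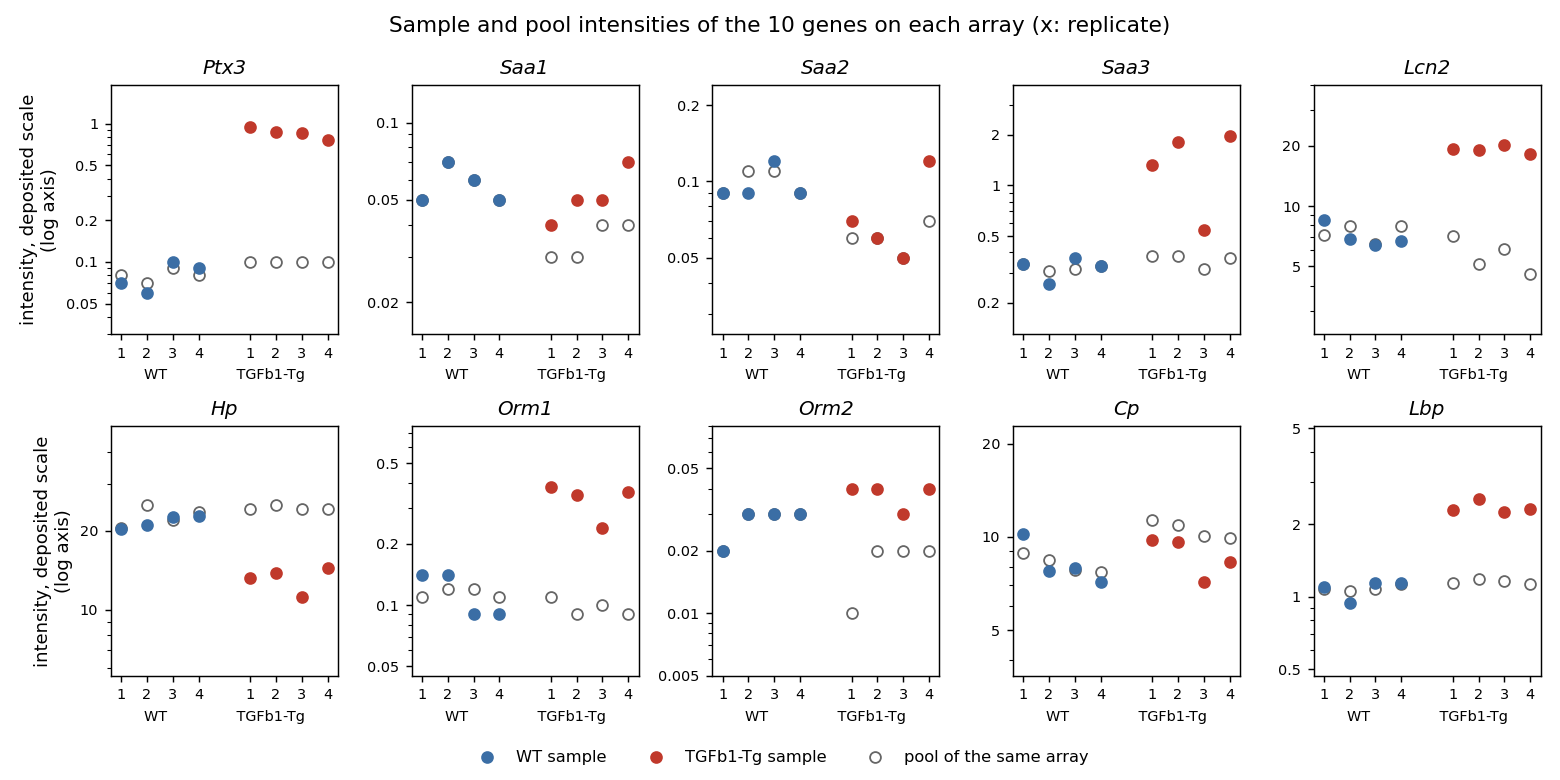
Deposited intensity (log axis, scale set by the authors) of each of the 10 genes on the 4 WT and 4 TGFb1-Tg arrays, with the lung sample as a filled circle and the pool of the same array as an open circle, hidden where both are equal. Ptx3 lies at 0.06 to 0.10 in the WT samples and 0.76 to 0.95 in the TGFb1-Tg samples, while the TGFb1-Tg samples of Hp lie below their pools.

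The promoters of the genes on which the results turn are shown first. They run from 250 bases before the annotated start to 10 bases after it, are taken from RefSeq on GRCm38.p6, and are written 5′ to 3′ on the strand of the gene. Capitals mark matches to the motifs searched, which are described with the promoters below. Ptx3 had the greatest difference of the 10, Saa3 and Lcn2 followed, and Saa1 and Saa2 are shown because they are close copies. The stretches are chr3:66219637-66219896 on the plus strand for Ptx3, chr7:46715667-46715926 on the minus strand for Saa3, chr2:32387730-32387989 on the minus strand for Lcn2, chr7:46742971-46743230 on the minus strand for Saa1 and chr7:46751583-46751842 on the plus strand for Saa2.
Ptx3: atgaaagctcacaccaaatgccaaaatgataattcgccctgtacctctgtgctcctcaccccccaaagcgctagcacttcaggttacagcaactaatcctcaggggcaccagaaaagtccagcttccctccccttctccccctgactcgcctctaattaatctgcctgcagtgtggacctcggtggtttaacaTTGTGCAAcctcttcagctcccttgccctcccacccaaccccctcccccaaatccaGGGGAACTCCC
Saa3: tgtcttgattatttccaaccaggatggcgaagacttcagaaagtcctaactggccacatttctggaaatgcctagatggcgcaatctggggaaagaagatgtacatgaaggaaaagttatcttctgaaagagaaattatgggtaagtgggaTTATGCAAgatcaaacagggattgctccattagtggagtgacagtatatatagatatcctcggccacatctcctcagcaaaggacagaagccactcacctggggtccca
Lcn2: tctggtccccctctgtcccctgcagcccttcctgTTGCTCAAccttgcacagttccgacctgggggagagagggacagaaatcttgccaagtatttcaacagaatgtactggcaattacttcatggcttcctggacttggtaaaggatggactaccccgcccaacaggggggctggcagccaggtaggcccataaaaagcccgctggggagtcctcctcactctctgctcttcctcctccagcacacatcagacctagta
Saa1: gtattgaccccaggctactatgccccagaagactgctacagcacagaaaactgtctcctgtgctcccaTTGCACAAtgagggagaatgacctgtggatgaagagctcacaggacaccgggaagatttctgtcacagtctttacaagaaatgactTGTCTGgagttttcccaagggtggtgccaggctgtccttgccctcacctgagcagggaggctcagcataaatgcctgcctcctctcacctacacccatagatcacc
Saa2: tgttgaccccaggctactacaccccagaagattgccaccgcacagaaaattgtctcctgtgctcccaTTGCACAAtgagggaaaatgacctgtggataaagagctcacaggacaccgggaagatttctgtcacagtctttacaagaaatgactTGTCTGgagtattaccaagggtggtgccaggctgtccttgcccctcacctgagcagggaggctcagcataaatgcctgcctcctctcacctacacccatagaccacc

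Ptx3, the long pentraxin that binds microbes and complement C1q and helps to build hyaluronan-rich matrix, showed the greatest rise. Its sample intensities were 0.07, 0.06, 0.10 and 0.09 in WT replicates 1 to 4 and 0.95, 0.87, 0.86 and 0.76 in TGFb1-Tg replicates 1 to 4. All 4 TGFb1-Tg lungs lay far above all 4 WT lungs. The pool read 0.08, 0.07, 0.09 and 0.08 beside the WT lungs and 0.10 beside each TGFb1-Tg lung. The pools of both array sets were therefore close to the WT samples. The log2 sample over pool was -0.02 ± 0.21 in WT and 3.10 ± 0.13 in TGFb1-Tg (SD, n = 4 each), a difference of 3.12 ± 0.12 (SE, adjusted p = 7.86e-06) or 8.71-fold. It ranked 6th among the 25647 genes tested, and the 0.01 step of the intensities, which is coarse at WT levels, allows a difference of 2.86 to 3.39. Outside the TGFb1-Tg samples the mean intensity of Ptx3 was 0.0867.

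Serum amyloid A proteins are small lipoprotein-bound proteins, of which Saa1 and Saa2 are the classic products of the mouse liver and Saa3 is the form made mainly outside it, by macrophages, fat cells and epithelium. Saa3 sample intensities were 0.34, 0.26, 0.37 and 0.33 in the WT lungs and 1.33, 1.82, 0.54 and 1.98 in the TGFb1-Tg lungs. Every TGFb1-Tg lung exceeded every WT lung, and TGFb1-Tg replicate 3 stood well below the other 3. The pools beside them read 0.31 to 0.34 and 0.32 to 0.38. The difference in log2 sample over pool was 1.82 ± 0.36 (SE, adjusted p = 0.00632), or 3.53-fold, with an SD of 0.75 among the 4 TGFb1-Tg ratios. Without TGFb1-Tg replicate 3 the difference was 2.17.

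Saa1 passed the same test with a smaller difference of 0.57 ± 0.11 (SE, adjusted p = 0.00592), but the groups overlapped in the sample channel. The sample intensities were 0.05, 0.07, 0.06 and 0.05 in WT and 0.04, 0.05, 0.05 and 0.07 in TGFb1-Tg. The pool beside the WT samples read 0.05 to 0.07 and the pool beside the TGFb1-Tg samples 0.03 to 0.04, so the higher ratio went with a lower pool. Sample and pool were equal on all 4 WT arrays at the step of 0.01, and that step allows a difference between -0.03 and 1.19. Saa2 gave sample intensities of 0.09, 0.09, 0.12 and 0.09 in WT and 0.07, 0.06, 0.05 and 0.12 in TGFb1-Tg, with a difference in the ratio of 0.29 ± 0.19 (SE, adjusted p = 0.293) that was 0.12 without TGFb1-Tg replicate 4. Its groups overlapped in both the ratio and the sample channel.

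The naming of the Saa1 and Saa2 probes carries a limit, because the RefSeq gene table lists each of these symbols as a synonym of the other. Saa3, Saa4, Saa1 and Saa2 lie next to one another on chromosome 7, with 0 other protein-coding genes between neighbours. The probe sequences were not used here, so reads of one copy by the probe of another cannot be told apart.

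Lcn2, the lipocalin that binds bacterial siderophores and so withholds iron, is stored in neutrophil granules and is also made by inflamed epithelium. Its sample intensities were 8.56, 6.86, 6.39 and 6.70 in WT and 19.22, 19.03, 20.12 and 18.23 in TGFb1-Tg. The groups were widely apart and the TGFb1-Tg lungs were close to one another. The pool read 7.20, 7.95, 6.49 and 7.93 beside the WT lungs and 7.08, 5.15, 6.07 and 4.57 beside the TGFb1-Tg lungs. The difference in log2 sample over pool was 1.82 ± 0.15 (SE, adjusted p = 0.00013), the same 3.53-fold as for Saa3. TGFb1-Tg replicate 3, the lowest of its group in Saa3, had the highest Lcn2 sample intensity. Lcn2 reached 83.2% of the highest sample intensity of its array, and saturation was not tested.

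Neutrophil markers were read beside Lcn2, and their calls beside the 19% higher and 19.8% lower over all genes tested. Of the 13 listed, 12 could be tested (Ly6g had too few values), of which 2 rose, 4 fell and 6 did not pass, with a median difference of -0.66 that was -0.28 in the direct comparison relative to the median gene. Their summed sample intensity ranged from 9.43 to 18.99 in WT and from 11 to 14.78 in TGFb1-Tg. Mmp8, a neutrophil collagenase, and Retnlg, a resistin-like protein of neutrophils, were the 2 higher genes at 1.33 ± 0.18 and 1.20 ± 0.20 (SE). Mmp9, S100a9, Csf3r and Ltf were the 4 lower ones, from -1.44 for Mmp9 to -0.69 for Ltf, and S100a9 and Csf3r were not called in the direct comparison of sample channels described below. The part of neutrophils in the rise of Lcn2 was not tested. The neutrophil granule genes Elane, Mpo, Camp and Ngp had sample intensities between 0.01 and 0.22 in all lungs. Other markers of the list were brighter, with Ltf at 1.67 to 2.69 in WT and 0.64 to 1.09 in TGFb1-Tg. S100a9 lay at 3.5 to 7.9 in WT and 2.6 to 4.9 in TGFb1-Tg.

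Orm1 and Orm2 encode α1-acid glycoproteins, plasma proteins that bind basic drugs and lipids. Orm1 sample intensities were 0.14, 0.14, 0.09 and 0.09 in WT and 0.38, 0.35, 0.24 and 0.36 in TGFb1-Tg. The groups did not overlap, and TGFb1-Tg replicate 3 was again the lowest of its group. The pools beside them read 0.11 to 0.12 and 0.09 to 0.11. The difference was 1.79 ± 0.24 (SE, adjusted p = 0.000963), or 3.45-fold.

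Orm2 sample intensities were 0.02, 0.03, 0.03 and 0.03 in WT and 0.04, 0.04, 0.03 and 0.04 in TGFb1-Tg. The groups met at 0.03 in the sample channel. The pool was 0.02 to 0.03 beside the WT samples and 0.01 to 0.02 beside the TGFb1-Tg samples. The difference in the ratio was 1.15 ± 0.28 (SE, adjusted p = 0.016), and the step of 0.01 allows a difference from 0.00 to 2.44, so the size of the Orm2 change is barely measured. Orm1, Orm3 and Orm2 are neighbours on chromosome 4, and what each probe reads of the other copies cannot be told apart. Orm3, measured at sample intensities of 1.28 to 3.81 in WT and 1.03 to 1.90 in TGFb1-Tg, gave a difference of -0.05 ± 0.02 (SE, adjusted p = 0.128).

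Lbp encodes the lipopolysaccharide-binding protein, which hands bacterial endotoxin to CD14 and Toll-like receptor 4. Its sample intensities were 1.10, 0.94, 1.14 and 1.14 in WT and 2.30, 2.55, 2.25 and 2.32 in TGFb1-Tg. The TGFb1-Tg lungs lay in a narrow band above the WT lungs. The pool was steady, at 1.06 to 1.13 beside WT and 1.13 to 1.18 beside TGFb1-Tg. The difference of 1.04 ± 0.06 (SE, adjusted p = 2.9e-05), or 2.06-fold, had the smallest SE of the 10 genes.

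Hp and Cp are the 2 of the 10 whose ratios were lower in TGFb1-Tg lungs. Haptoglobin, the product of Hp, captures free haemoglobin and is cleared through the macrophage receptor CD163. Hp sample intensities were 20.34, 21.02, 22.48 and 22.78 in WT and 13.20, 13.75, 11.22 and 14.44 in TGFb1-Tg. Every TGFb1-Tg lung was below every WT lung, with replicate 3 the lowest. The pool was 20.47 to 24.95 beside the WT lungs and 24.11 to 24.99 beside the TGFb1-Tg lungs. The ratio fell by 0.83 ± 0.09 on the log2 scale (SE, adjusted p = 0.000449), so that it was 1.78-fold lower. The WT samples and the pools reached 88.2% and 84% of the highest intensity of their channel, and saturation was not tested here either.

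Ceruloplasmin, the product of Cp, is the copper-bearing ferroxidase that loads iron onto transferrin. Cp sample intensities were 10.25, 7.77, 7.93 and 7.14 in WT and 9.80, 9.63, 7.18 and 8.28 in TGFb1-Tg, and these groups overlapped. The pool was lower beside the WT lungs (7.70 to 8.87) than beside the TGFb1-Tg lungs (9.93 to 11.38). The difference in the ratio was -0.29 ± 0.10 (SE, adjusted p = 0.0532), with the TGFb1-Tg ratios (-0.49 to -0.18) all below the WT ratios (-0.12 to 0.21). Cp passed the threshold when dim probes were left out (adjusted p = 0.0214) and with a trended, robust variance (adjusted p = 0.0429).

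In 9 of the 10 genes the ratios of the groups did not overlap, 7 higher and 2 lower, where over all genes tested this held for 37.4%, with 18.2% wholly higher and 19.1% wholly lower. Saa2 was the exception. Among the TGFb1-Tg arrays, replicate 3 had the lowest ratio in Saa1, Saa3, Orm1, Orm2, Lbp, Hp and Cp, and shared the lowest in Saa2. In Ptx3 the lowest ratio was that of replicate 4, and in Lcn2 that of replicate 1. In the authors' deposited table, each array carries a p-value for sample against pool. For all 10 genes this deposited p was at least 0.01 on the 4 WT arrays. On the TGFb1-Tg arrays it was under 0.01 in all 4 for Ptx3, Saa3, Lcn2, Orm1 and Lbp, and in 3 for Hp and Orm2. By the authors' deposited table it was under 0.01 on 2 TGFb1-Tg arrays for Saa1 and on 1 each for Saa2 and Cp.

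Because the pools of the array sets may differ, the lung samples were also compared directly in the Cy5 channel, without the pool. In that comparison the scale of each array matters. The median of all genes was 0.12 with arrays centred on their median, -0.37 with arrays scaled on brighter probes and -0.17 on the deposited scale. The differences are therefore given relative to the median gene of the centred fit, while the calls and adjusted p-values are those of that fit before this shift. Of the 10 genes 6 were higher, 1 lower and 3 not called in the centred fit, where 48.3% of all genes were called, 35.1% higher and 13.2% lower. Elsewhere in the text, the direct comparison means this centred fit unless another scale is named.

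Relative to the median gene, Ptx3 differed by 3.62 ± 0.17, Saa3 by 2.15 ± 0.35, Orm1 by 1.72 ± 0.20, Lcn2 by 1.61 ± 0.13 and Lbp by 1.30 ± 0.12 (SE). Hp differed by -0.55 ± 0.11 (SE), with an adjusted p of 0.00938 in the centred fit. These 6 had the same sign and passed limma's test in the pool-based and in the centred direct comparison. Orm2 differed by 0.63 ± 0.16 (SE), with an adjusted p of 0.00333 in the centred fit, which is about what the step of 0.01 can resolve at its intensity.

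Saa1, Saa2 and Cp did not pass the test once the pool was set aside. Saa1 differed by 0.03 ± 0.17 relative to the median gene (SE), with an adjusted p of 0.507 in the centred fit. Saa2 differed by -0.28 ± 0.22 (SE), with an adjusted p of 0.561 in the centred fit, and Cp by 0.25 ± 0.15 (SE), with an adjusted p of 0.065 there. The values of Saa2 and Cp had the opposite sign to their ratios. The pool intensities of Saa1 and Saa2 were lower beside the TGFb1-Tg lungs than beside the WT lungs, and that of Cp was higher, each opposite to the sign of the ratio.

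**Figure D2:**
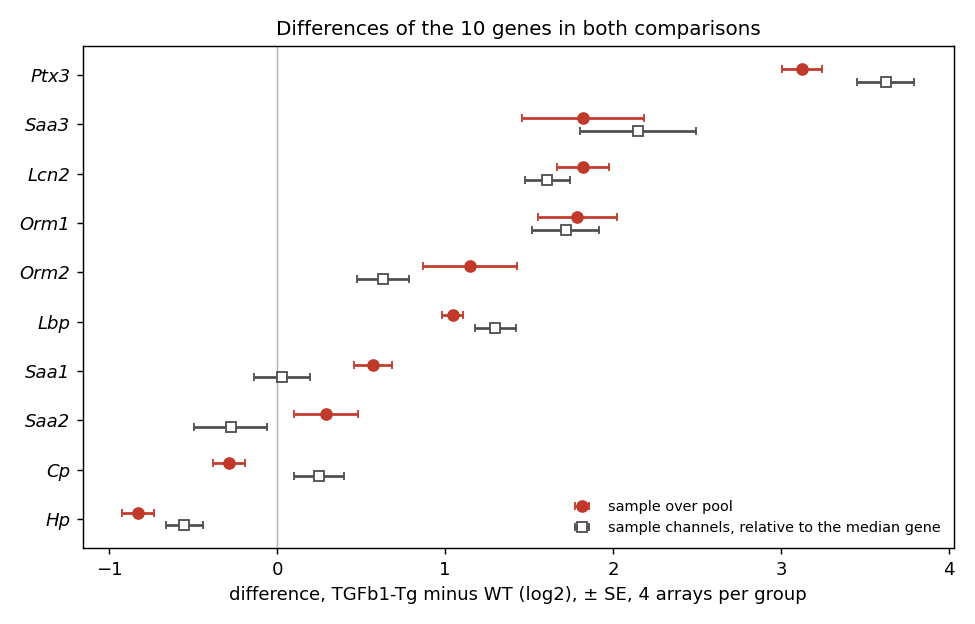
Difference between TGFb1-Tg and WT lungs on the log2 scale for each of the 10 genes, with SE bars and 4 arrays per group, as sample over pool (filled circles) and as sample channels relative to the median gene (open squares). Ptx3 stands apart at 3.12 and 3.62, and Saa2 and Cp lie on opposite sides of 0 in the 2 comparisons.

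The signals that switch on acute phase genes were measured beside them. The counts of each list below are to be read beside the shares over all genes tested. These shares were 19% higher and 19.8% lower in the ratio, and 35.1% higher and 13.2% lower in the direct comparison. Of 20 inducing cytokines and receptors 19 could be tested (Osm had too few values), of which 10 rose, 4 fell and 5 did not pass, with a median of 0.09. In the direct comparison 9 were higher and 2 lower, with a median of 0.15 relative to the median gene. Il6, the main inducer of the liver response, rose by 2.66 ± 0.15 (SE, adjusted p = 2.86e-05), from sample intensities of 0.06 to 0.07 in WT to 0.32 to 0.46 in TGFb1-Tg. Il1b, an inflammatory cytokine of macrophages, rose by 1.08 ± 0.30 (SE, adjusted p = 0.0251), a call that was lost without WT replicate 4 and without TGFb1-Tg replicate 2 or 4 (adjusted p = 0.0525 to 0.0684). The receptor genes Il6ra, Lifr, Il6st and Il22ra1 were the 4 lower ones, with Il6ra at -0.95 ± 0.07 and Il22ra1 at -0.13 ± 0.04 (SE). Of these, only Lifr was called lower in the centred direct comparison. With arrays scaled on brighter probes Il6ra was called lower as well, at -0.74, and on the deposited scale at -0.54. Tnf did not pass, at -0.08 ± 0.03 (SE, adjusted p = 0.139).

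Of 16 transcription and feedback factors 8 rose, 3 fell and 5 did not pass, with a median of 0.17. Compared directly, 12 were higher and 0 lower, with a median of 0.54 relative to the median gene. Socs3, the inhibitor that STAT3 induces against its own pathway, rose by 0.80 ± 0.13, and Stat3 itself by 0.40 ± 0.03 (SE). Bcl3, an atypical inhibitor of NF-κB that also acts in the nucleus, rose by 0.68 ± 0.10 (SE). Nfkbia, which holds NF-κB in the cytoplasm, fell by 0.70 ± 0.06 on the log2 scale, and Rela and Nfkb1, 2 NF-κB subunits, were the other lower genes at -0.18 ± 0.03 and -0.13 ± 0.04 (SE). In the centred direct comparison Nfkbia was not called, and Nfkb1 and Rela were above 0 relative to the median gene, at 0.17 and 0.25. With arrays scaled on brighter probes Nfkbia was called lower at -0.58, and on the deposited scale at -0.38. The medians of all genes on these scales were -0.37 and -0.17.

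Of 22 other positive acute phase genes 10 rose, 3 fell and 9 did not pass, with a median of 0.35. The direct comparison called 10 higher and 1 lower, with a median of 0.09 relative to the median gene. Fgg, the fibrinogen γ chain, rose by 2.08 ± 0.23, Itih4, a heavy chain of the inter-α-trypsin inhibitor family, by 1.79 ± 0.08 and Mt2, a metal-binding metallothionein, by 1.54 ± 0.13 (SE). Serpina3n, a protease inhibitor, rose by 0.50 ± 0.11 (SE, adjusted p = 0.0112). Hamp, the iron hormone hepcidin, was lowest at -1.24 ± 0.25, and the complement genes C3 and Cfb were lower at -0.51 ± 0.15 and -0.37 ± 0.04 (SE), neither of which was called in the direct comparison. The ratio of C3 had values on only 3 arrays per group (limma's adjusted p = 0.0466). Its sample intensities were high, at 22.59 to 25.18 in WT and 17.78 to 22.60 in TGFb1-Tg, and saturation was not tested. Crp and Apcs, the short pentraxins made in the liver, did not pass, at -0.10 ± 0.10 and 0.20 ± 0.15 (SE), with sample intensities of 0.02 to 0.13.

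Of 7 negative acute phase genes, which fall in liver during the response, 1 rose, 2 fell and 4 did not pass, with a median of 0.10. In the direct comparison 1 was higher and 3 were lower, with a median of -0.51 relative to the median gene. The lower ones there were Rbp4, Serpina6, a corticosteroid carrier, and Apoa1, the main protein of high-density lipoprotein, at -0.64 (adjusted p = 0.00368 in the centred fit). In the ratio Apoa1 and Serpina6 were not called, at 0.10 ± 0.08 and -0.07 ± 0.05 (SE), since their pools were lower as well. The pool of Apoa1 read 0.16 to 0.19 beside WT and 0.09 to 0.11 beside TGFb1-Tg. That of Serpina6 read 0.11 to 0.18 and 0.09 to 0.11. Rbp4, the retinol carrier, fell by 1.12 ± 0.10 on the log2 scale (SE). Trf, transferrin, had a ratio of -0.20 ± 0.06 (SE, adjusted p = 0.0242) but a direct difference of 0.07 relative to the median gene, and its call was lost without TGFb1-Tg replicate 1 (adjusted p = 0.0529) or 4 (adjusted p = 0.0616). With arrays scaled on brighter probes Trf was called lower at -0.30, and on the deposited scale it was -0.10 and not called. Ahsg, the calcium-binding fetuin A, rose by 0.41 ± 0.07 (SE). Alb, albumin, was at 0.19 ± 0.31 (SE, adjusted p = 0.673), and its sign turned to -0.11 without TGFb1-Tg replicate 2.

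Of 12 hepatocyte markers, 11 could be tested (Serpina1a had too few values), of which 1 rose, 3 fell and 7 did not pass, with a median of 0.11 that was -0.35 in the direct comparison relative to the median gene. Their summed sample intensity was 3.08 to 3.54 in WT and 1.30 to 1.61 in TGFb1-Tg, and most of the WT sum was that of Cyp2e1 (1.61 to 2.00 in WT, 0.48 to 0.68 in TGFb1-Tg) and Asgr1 (0.65 to 0.94 in WT, 0.08 to 0.10 in TGFb1-Tg). The higher gene was Ahsg, and the lower ones were Asgr1 at -3.10 ± 0.12, Cyp2e1 at -1.43 ± 0.10 and Tat at -0.26 ± 0.05 (SE). Alb sample intensities were 0.05 to 0.15. Ttr, Serpina1b and Cps1 lay below the direct median of the hepatocyte markers, and their pools were lower beside TGFb1-Tg as well. The pool of Serpina1b read 0.045 to 0.082 beside WT and 0.032 to 0.035 beside TGFb1-Tg. That of Cps1 read 0.15 to 0.24 and 0.09 to 0.14. Of 7 macrophage markers 5 could be tested, of which 4 rose (Cd68, Adgre1, Ms4a7 and Ccr2, from 0.37 for Ccr2 to 1.25 for Cd68) and Marco did not pass, and their summed sample intensity was 5.80 to 6.66 in WT and 12.43 to 13.98 in TGFb1-Tg. The part of macrophage number in the rises of Ptx3, Saa3 and Lcn2 was not tested. Fat cells also express Saa3 and Hp. Of 4 adipocyte markers 3 fell (Adipoq, Cfd and Plin1) and Lep did not pass, with a summed sample intensity of 5.07 to 8.27 in WT and 1.71 to 2.76 in TGFb1-Tg. Most of this sum was that of Cfd (4.14 to 7.16 in WT, 1.44 to 2.43 in TGFb1-Tg). The direct comparison called 2 of the 4 lower, and Plin1 was not called there. The part of fat tissue in the fall of Hp was not tested.

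The receptors and binding partners of the 10 products numbered 23, of which 15 rose, 3 fell and 5 did not pass, with a median of 0.52. Compared directly, 17 were higher and 2 lower, with a median of 0.70 relative to the median gene. C1qb and C1qc, chains of the complement C1q molecule that PTX3 binds, rose by 1.15 ± 0.07 and 1.12 ± 0.08 (SE). Cd163, the haptoglobin-haemoglobin receptor, fell by 0.95 ± 0.12 (SE), in the same direction as Hp. P2rx7, an ATP receptor, was lower at -0.18 ± 0.03 (SE), and it was not called in the direct comparison. Of 13 other pentraxins and lipocalins 1 rose, 2 fell and 10 did not pass, with a median of -0.04, and the direct median was -0.38 relative to the median gene. The lower ones were Rbp4 and Apod, a lipid-carrying lipocalin, at -0.79 ± 0.11 (SE), which was not called in the centred direct comparison. With arrays scaled on brighter probes Apod was called lower at -0.75, and on the deposited scale at -0.55. Lcn4 and Lcn12 lay below the direct median, and their pools were lower beside TGFb1-Tg as well. The pool of Lcn4 read 0.30 to 0.37 beside WT and 0.18 to 0.20 beside TGFb1-Tg. Nptxr, the neuronal pentraxin receptor, was the higher one at 0.11 ± 0.03 (SE, adjusted p = 0.0265), a call lost without WT replicate 1 or 4 and without TGFb1-Tg replicate 1, 2 or 4, and negative relative to the median gene in the direct comparison at -0.09. Nptx1, a neuronal pentraxin, was at -0.04 ± 0.10 (SE, adjusted p = 0.796), and at 0.39 in the direct comparison relative to the median gene.

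**Figure D3:**
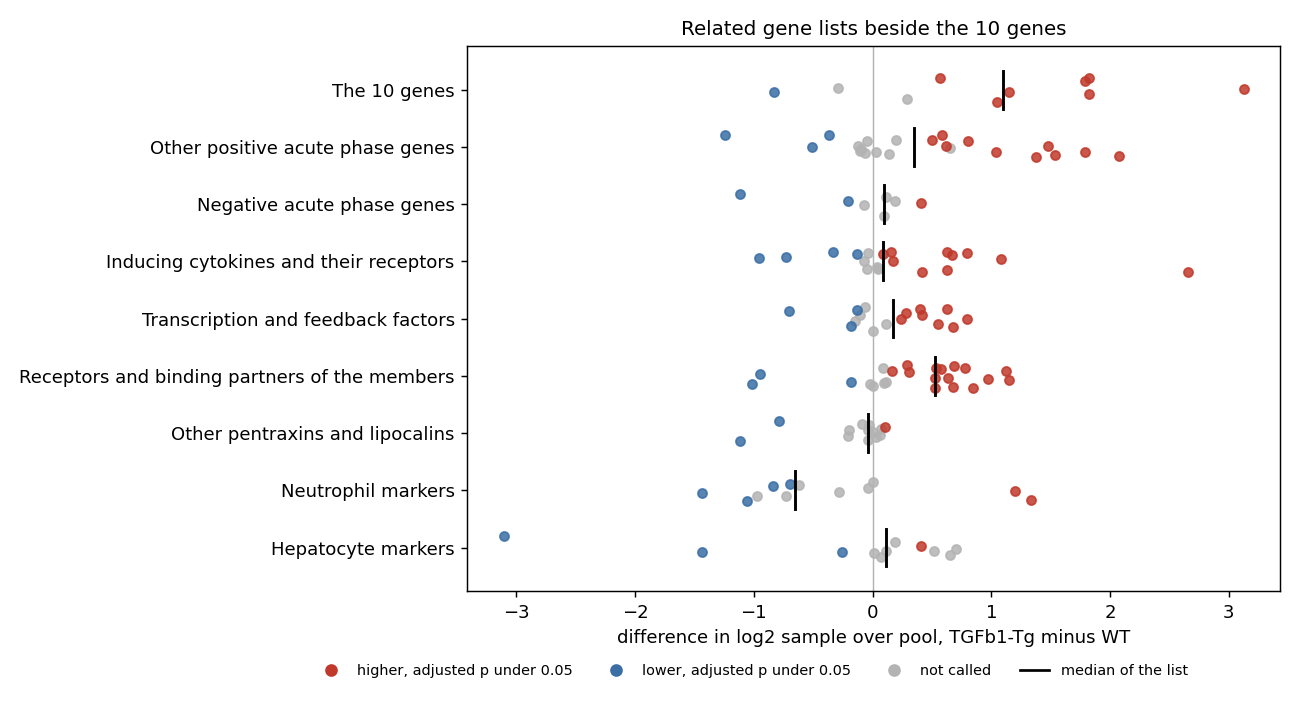
Difference in log2 sample over pool, TGFb1-Tg minus WT, of each gene (points, spread vertically only to show them) in the 10 genes, the related lists and the neutrophil and hepatocyte markers, with the list median as a black bar. The median of the 10 genes is 1.09 and that of the neutrophil markers is -0.66, and red and blue mark genes called higher and lower.

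The genes most like Ptx3 in the ratio were sought over the 8 arrays among 16100 genes, by the root mean square difference of the log2 ratio. The 5 nearest were Lama1, a laminin chain (0.34), Pimreg, a mitotic regulator (0.35), Areg, the EGF receptor ligand amphiregulin (0.37), Ankrd37, an ankyrin repeat protein (0.39), and Ltbp2, a latent TGF-β binding protein family member of the matrix (0.39). Their differences between the groups ran from 2.56 for Ltbp2 to 3.41 for Lama1. The 5 nearest to Saa3 were Adssl1, an enzyme of adenine nucleotide synthesis (0.33), Timp1, the tissue inhibitor of metalloproteinases (0.35), 9530077C05Rik (0.36), Lilr4b, an inhibitory receptor of myeloid cells (0.37), and Pclaf, a partner of the replication clamp (0.38). Their differences ran from 1.58 for Timp1 to 1.85 for Lilr4b. The distance was taken on the same ratios, so for both sets of 5 a similar difference between the groups follows from the choice. The 10 genes themselves were left out of this search.

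Promoter windows of 300 bases were found in the RefSeq table for 7 of the 10 genes, with 8 windows in all since Cp has 2. None was matched for Hp, Orm1 and Lbp. On both strands of each window the letters TTGCNNAA (C/EBP) and TTCNNNGAA (STAT) were searched, with the NF-κB consensus. The C/EBP letters were in a window of all 7 genes and in 10.8% of the 32851 windows of the table. In the sequences above they lie between 57 and 50 bases before the start in Ptx3, 99 and 92 in Saa3, 182 and 175 in Saa1, 183 and 176 in Saa2, and 216 and 209 in Lcn2. Genes with these letters included both the risen Ptx3, Saa3 and Lcn2 and the uncalled Saa2 and Cp.

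The NF-κB consensus was found in 1 gene, Ptx3, as a match on each strand that overlap at the annotated start, against 4.51% of all windows. The SMAD letters CAGACA were in 3 genes, Saa1, Saa2 and Lcn2, against 21% of windows, and the one of Lcn2 lies 41 to 46 bases after the start, beyond the stretch printed, while in Saa1 and Saa2 they lie between 97 and 91 bases before it. The letters TATAAA, the core promoter motif named for them, were in 2 genes, Orm2 and Cp, against 13.6%. The STAT letters were in 0 of the 7, against 8.30%. No match of the letters overlapped a match to another motif. The Saa1 and Saa2 windows were identical at 96.0% of aligned bases, including the C/EBP and SMAD letters, while Saa3 was identical to Saa1 at 65.1% and to Saa2 at 62.8%. A match is a description of letters and says nothing of binding.

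**Figure D4:**
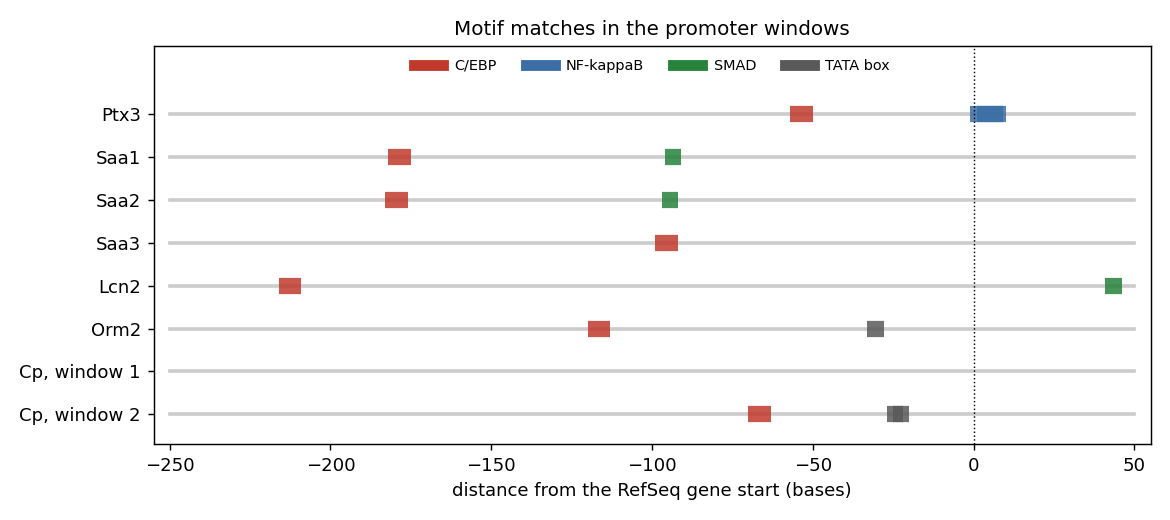
Position of motif matches in the 8 promoter windows, as distance in bases from the RefSeq gene start (dotted line), with colours for the motifs. Every gene shown has a C/EBP match in at least 1 window, and the NF-κB matches of Ptx3 lie at the start.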

How the data were processed

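The deposited table holds, for each of 39341 probes and 8 arrays, an intensity per channel and a p-value. Per the labels' protocols, Trizol extracts were amplified by RT and IVT from an input of 100 ng. Intensities came from Agilent Feature Extraction 8.5.1.1, per the submitters' processing notes, and were deposited by the authors on a small decimal scale with a step of 0.01. Background correction, dye normalization and saturation flags were not given in the sources used here. The deposited p-value per array and the authors' log10 ratios, kept as a value table, were deposited without a stated method. The value table's log10 values matched the log10 of sample over pool intensity within 0.002 for at least 99.99% of probes on each array, with a median of 0 per array, so scale, centring and direction are known. No slide or scan batch was given.

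From these, log2 of sample (Cy5) over pool (Cy3) was averaged over the probes of a gene, named through RefSeq (GRCm38.p6, names only). Genes with at least 2 values per group were tested with limma 3.58.1 (R 4.3.3, lmFit and eBayes, two-sided, Benjamini-Hochberg over 25647 genes). The labels number the replicates without naming separate animals, so p-values measure the spread between these 8 samples, which may be technical, and the pools add no spread between animals. The fit was tested on simulated data of 25303 genes, where it recovered 65% of 80 genes changed by 0.5, 88.8% of 80 changed by 1 and 97.5% of 40 changed by 2 on the log2 scale, with 10 false calls.

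The members and lists were chosen with earlier results of these data known. All members were named, and of each list its first gene and the 3 called genes with the largest absolute difference. The genes most like Ptx3 and Saa3 were the 5 nearest each, among genes with a value on all 8 arrays and a mean intensity of at least 0.1 in both channels. Where 5 or fewer genes of a list were called in a direction they are named, except 1 that is not reported here, and these, with Tnf, Crp, Apcs, Orm3, Marco and the neutrophil granule genes, were chosen after their values were seen. Alternatives tried were the scaling, an offset, a filter on dim probes, the variance model, the probe rule, the deposited ratios, the replicate number as a block, the direct comparison and each replicate left out.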

Additional observations from a re-analysis of the deposited data

Results flagged for a closer look

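In groups of 4 arrays, 1 value was set apart when its gap to the nearest other exceeded Dixon's critical share of the group's range. Of 104 groups examined 8 had such a value, and chance sets apart about 1 group in 20. Among the TGFb1-Tg ratios, the log2 ratio of Fgg was 1.85 in replicate 3 against 2.16 to 2.17 in the others, and that of Areg was 2.35 in replicate 3 against 2.74 to 2.82. The Trf log2 ratio was -0.27 in TGFb1-Tg replicate 4 against -0.17 to -0.15. In WT, the log2 ratio of Ankrd37 was -0.074 in replicate 4 against 0.00 in the others, and that of Timp1 was -0.046 in replicate 2 against 0.05. The Saa2 sample intensity was 0.12 in WT replicate 3 against 0.09, and the Orm2 sample intensity was 0.02 in WT replicate 1 against 0.03, and 0.03 in TGFb1-Tg replicate 3 against 0.04. These Orm2 gaps are each a single step of 0.01.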

How the results depend on the processing

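Over 22 alternatives, of which the direct comparisons on brighter probes and on the deposited scale were chosen after seeing the data, the 10 genes gave 217 values. Of these, 203 kept direction and side of the threshold, 5 lost and 2 gained the call, and 7 changed sign. All sign changes were in direct comparisons, where the medians of all genes were 0.12, -0.37 and -0.17 on the different scales. Saa2 was negative on each of these scales, while the signs of Saa1 and Cp differed between them. Saa3, Lcn2 and Lbp kept direction and side of the threshold in every alternative, with Lbp between 0.71 and 1.41. Ptx3 lay between 2.22 and 3.74, and it passed the filter on dim probes only through its TGFb1-Tg samples. With quantile normalization, which gives every array the same distribution of ratios, Hp was -0.44, Orm1 1.32 and Orm2 0.80 (adjusted p = 0.0901, 0.0736 and 0.0792), 1602 genes were higher and 1478 lower, and 0 of the 10 were lower. The calls of Socs3 (adjusted p = 0.223), Fgg (0.0614), Serpina3n (0.12), Ahsg (0.11), Cd163 (0.0948), Apod (0.126), Trf (0.515), Il1b (0.419) and Nptxr (0.531) were lost as well. Cp was -0.29 and called without dim probes and with the trended, robust variance, which made 2 of the 10 lower. In the direct comparison with centred arrays, Saa1 was 0.14, Saa2 -0.16, Cp 0.37, Trf 0.19 and Nptx1 0.51, and 9003 genes were higher. Scaled on brighter probes, Saa1 was -0.35, Saa2 -0.65, Orm2 0.26 (adjusted p = 0.234), Alb -0.20, Nptxr -0.46 and Nptx1 0.020, with 2882 genes higher and 12808 lower. On the deposited scale, Saa1 was -0.15, Saa2 -0.45, Cp 0.079, Nptxr -0.26 and Nptx1 0.22, with 7752 lower. Without dim probes Saa1, Saa2, Orm2 and Alb gave no value. With each replicate left out in turn, no call of the 10 changed, and Alb ranged from -0.11 to 0.42 and Nptx1 from -0.11 to 0.038. For the other 32 genes that the naming rule chose 665 of 702 values kept both, 28 lost the call and 9 changed sign. The cause was not tested.

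With replicate number as a block 4391 genes were higher and 4546 lower, and of the genes named Il1b (adjusted p = 0.0741) and Nptxr lost their call. Deviations of same-numbered WT and TGFb1-Tg samples correlated at 0.04, -0.02, 0.04 and 0.03, and those of differently numbered samples at -0.19 to 0.16. Same-numbered samples were thus no more alike in the ratio than others. Effects shared by both channels of an array are divided out of the ratio, so this cannot exclude a pairing. Intensities under 0.1, as for Saa1, Saa2 and Orm2, hold too few steps of 0.01 to fix a small difference.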
